A study of Mus musculus with 9 samples.

Results

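Matricellular proteins are secreted into the extracellular matrix and act on cells and growth factors more than they carry load. The 10 genes described here were chosen by symbol from the 43346 genes of the table and encode 4 thrombospondins (Thbs1, Thbs2, Thbs3 and Comp), tenascin-C (Tnc), osteopontin (Spp1), periostin (Postn), SPARC and its relative SPARC-like 1 (Sparc, Sparcl1), and fibronectin (Fn1), the fibrillar glycoprotein on which many of the others assemble. Transcript levels were measured by bulk RNA-Seq in lung fibroblasts from 4 aged sham mice, which received saline, and 5 aged bleo mice, which received bleomycin, a drug that injures the alveolar epithelium and leads to fibrosis. All mice were Col1a1-GFP transgenic males on an FVB background, aged 18 months in the design text and 72 weeks in the sample labels, and were studied 30 days after 1 intratracheal instillation. GFP is driven by the collagen I promoter in these mice, and the sort kept GFP+ cells that lacked CD45, CD31 and EpCAM. The gate thus aimed to leave out cells with little collagen I transcription, although markers of other cell types were detected, as given below. The study asked which transcriptional changes accompany the persistent fibrosis of aged lungs, and the comparison available here is aged bleo against aged sham.

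Thrombospondin-1 can release active TGF-β from its latent complex, and thrombospondins 1 and 2 bind CD36 and CD47 and restrain angiogenesis, while thrombospondin-3 and cartilage oligomeric matrix protein belong to the pentameric branch of the family. Tenascin-C, osteopontin and periostin are scarce in most uninjured adult tissue and appear during development and wound repair, where they signal mainly through integrins. SPARC is a collagen-binding chaperone of fibril assembly. Fibronectin is bound by integrin α5β1 and provides a scaffold for collagen deposition. Genes of this kind are widely used as markers of activated lung fibroblasts.

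The stretches of DNA just upstream of the genes with the largest differences are shown because the title of the deposited series names the factor NFATc1 and because TGF-β acts through SMAD proteins. RefSeq start sites on GRCm38.p6 were found for 6 of the 10 genes (Thbs2, Thbs3, Tnc, Spp1, Postn and Sparc). The 250 bases before the start are given 5′ to 3′ on the gene's own strand for the 3 genes with the largest rises, Spp1 (chr5:104434861-104435110, plus strand), Tnc (chr4:64047016-64047265, minus strand) and Postn (chr3:54360857-54361106, plus strand), and for Thbs3 (chr3:89214930-89215179, plus strand), the only member that fell. The RefSeq start lies 7 bases from the deposited gene start for Spp1, 2 bases for Postn and 0 bases for the other 2 genes. Capitals mark the core of the NFAT site (GGAAA), the SMAD-binding element (CAGACA), the AP-1 site (TGANTCA) and the TATA box (TATAAA), on either strand, so that TTTCC and TGTCTG are matches read on the opposite strand.
Spp1: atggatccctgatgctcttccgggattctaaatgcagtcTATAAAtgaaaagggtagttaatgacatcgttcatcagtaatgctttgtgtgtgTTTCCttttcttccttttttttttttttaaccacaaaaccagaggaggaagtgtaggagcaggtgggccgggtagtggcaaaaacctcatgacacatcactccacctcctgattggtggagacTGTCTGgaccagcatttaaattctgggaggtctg
Tnc: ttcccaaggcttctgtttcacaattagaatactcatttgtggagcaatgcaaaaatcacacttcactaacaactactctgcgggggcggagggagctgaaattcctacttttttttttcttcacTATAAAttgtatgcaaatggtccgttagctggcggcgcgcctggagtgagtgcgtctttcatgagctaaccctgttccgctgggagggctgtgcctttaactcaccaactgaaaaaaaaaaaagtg
Postn: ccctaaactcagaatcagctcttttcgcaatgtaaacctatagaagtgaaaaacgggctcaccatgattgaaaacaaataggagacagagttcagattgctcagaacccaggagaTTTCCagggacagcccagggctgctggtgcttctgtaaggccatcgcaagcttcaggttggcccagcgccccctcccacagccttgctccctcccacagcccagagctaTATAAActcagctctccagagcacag
Thbs3: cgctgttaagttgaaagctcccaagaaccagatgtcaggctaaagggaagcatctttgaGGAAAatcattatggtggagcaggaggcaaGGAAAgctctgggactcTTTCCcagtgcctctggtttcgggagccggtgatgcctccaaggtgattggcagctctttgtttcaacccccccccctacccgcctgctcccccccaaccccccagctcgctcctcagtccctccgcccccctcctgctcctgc

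With the base before the start counted as -1, the Postn window holds TATAAA at -26, whereas the same letters begin at -126 in Tnc and at -211 in Spp1. The NFAT letters occur at -157 in Spp1, at -135 in Postn and at -191, -161 and -144 in Thbs3, and were not found in the Tnc window. They are common, as 55.6% of the 32817 RefSeq windows of this length hold them. The SMAD letters occur in Spp1 at -34, and 17.1% of all windows hold them. TATAAA is held by 12.4% of all windows. The AP-1 letters, held by 6.75% of all windows, were in none of the 6 windows. These matches are letters in a window and say nothing about binding.

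Between 49921946 and 62370512 reads were counted on genes per aged sham library and between 53833507 and 68260600 per aged bleo library. Levels are given as CPM, the counts scaled to the TMM-normalized library size, which compare 1 gene across libraries, and as the deposited FPKM, which are scaled to gene length and allow genes to be compared with each other. A gene was called differentially expressed where the FDR of edgeR's quasi-likelihood test over the 16877 genes tested was under 0.10 and the fold change over 1.5. All 10 members passed the filter of a mean of 25 counts per library. No pair of libraries of 1 group was a duplicate. The fibroblast label fits the markers, since Col1a1, Col1a2, Pdgfra, Dcn, Lum and 4 other fibroblast genes summed to 22896 to 26412 CPM in aged sham and 35729 to 48996 CPM in aged bleo. Of these 9 genes, Col1a1, Col1a2 and Npnt were called higher and Dcn, Tcf21, Pi16 and Dpt lower, with a median log2 fold change of -0.43, so the higher sum is that of the collagen genes. Markers of other cell types were detected too, those of smooth muscle and pericytes at the highest summed level. The summed level of 12 macrophage genes was 378 to 849 CPM in the uninjured and 701 to 2081 CPM in the injured libraries, the highest value being that of aged bleo 4. This library also had 577 CPM of 6 pan-leukocyte genes, of which Laptm5 was called higher in aged bleo, and 821 CPM of 6 neutrophil genes, against at most 160 and 121 CPM in the other 4 aged bleo libraries, while aged sham 4 had 376 and 924 CPM. Endothelial genes summed to 165 to 204 CPM in aged sham and 28.4 to 72.3 CPM in aged bleo, a difference carried by Tek (161 against 28.9 CPM), while Kdr and Egfl7 were called higher and the median log2 fold change of the 7 genes was -0.03. Epithelial genes summed to at most 98.7 CPM in any library, with Krt8 called higher and Ager lower. Smooth muscle and pericyte genes summed to 2912 to 5568 CPM in aged sham and 2341 to 3567 CPM in aged bleo. Of them, Notch3 and Pdgfrb were called higher and Myh11 and Cnn1 lower. Mesothelial and Schwann cell genes summed to at most 106 and 6.70 CPM, and none of them was called. In bulk RNA, a change in the number of cells of a type and a change in RNA per cell cannot be told apart. The library names carry a suffix whose meaning is not stated. All aged sham libraries have the same suffix, and aged bleo 4 is the only aged bleo library that shares it. Aged bleo 5 has a suffix of its own, and the remaining aged bleo libraries share another. The suffix thus nearly coincides with treatment. It also sets aged bleo 4 and 5, the lowest libraries for Thbs3 and Tnxb, apart from the remaining aged bleo libraries. Its part in these differences was not tested.

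Of the 10 genes, 8 differed between the groups, against 23.8% of all tested genes called in either direction. Thbs1, Thbs2, Tnc, Spp1, Postn, Sparc and Fn1 rose after bleomycin (7 of 10, against 12.3% of all tested genes called higher), and Thbs3 fell (1 of 10, against 11.5% called lower). The same 8 genes had no overlap between the 2 groups of libraries, against 32.2% of all tested genes. Sparcl1 and Comp were not called. The median log2 fold change of the 10 genes was 1.36, where that of all tested genes was 0.01. Together, the 10 genes took 0.930% to 1.49% of the counts in the aged sham libraries and 2.30% to 3.60% in the aged bleo libraries.

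**Figure D1:**
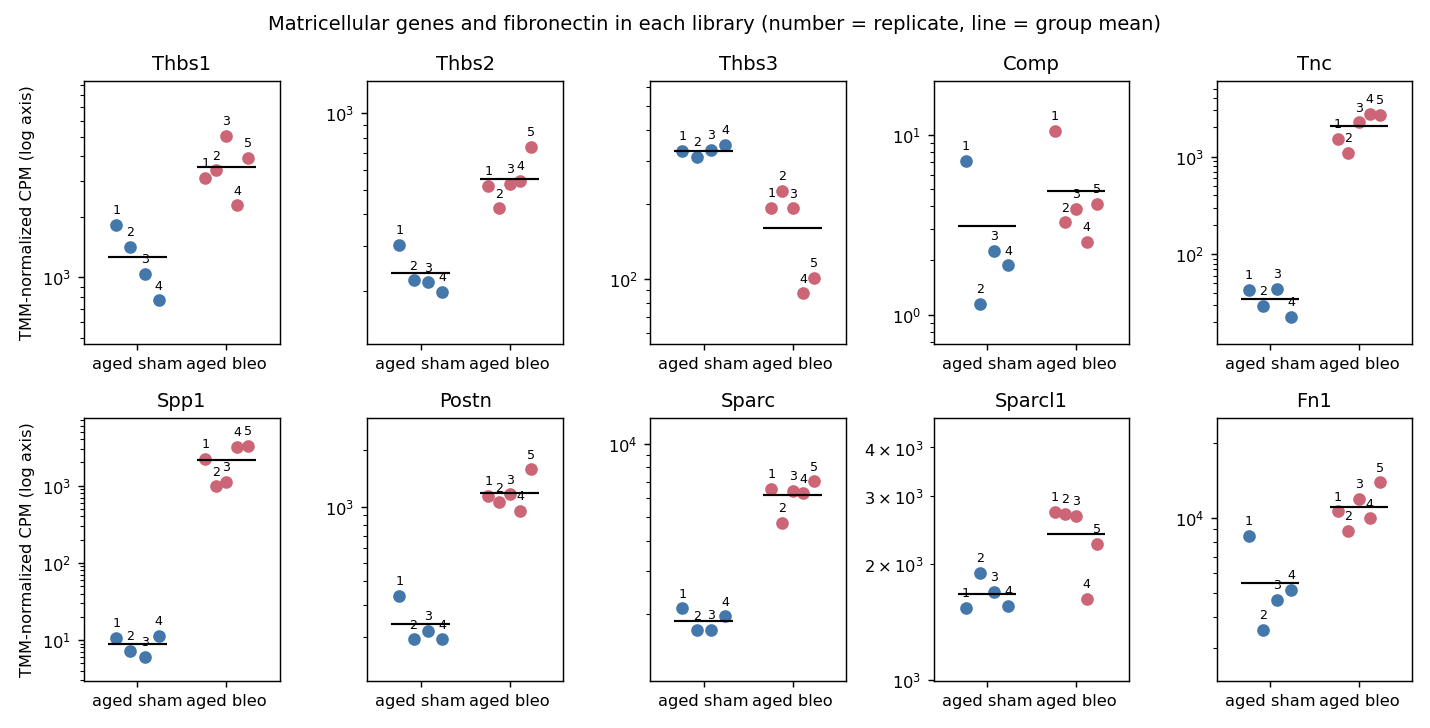
TMM-normalized CPM (log axis, a separate range for each gene) of the 10 genes in the 4 aged sham (blue) and 5 aged bleo (red) libraries, each point labelled with its replicate number and each line at the group mean. The red points lie above all blue points for Thbs1, Thbs2, Tnc, Spp1, Postn, Sparc and Fn1 and below them for Thbs3, and they overlap for Comp and for Sparcl1, the latter through aged bleo 4 alone.

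Of the trimeric thrombospondins, Thbs1 (ENSMUSG00000040152, chromosome 2, 118111876 to 118127133, plus strand) was at 1819, 1419.6, 1040.45 and 768 CPM in aged sham 1 to 4 and at 3106.5, 3398, 5050.3, 2279 and 3924 CPM in aged bleo 1 to 5. The groups did not overlap, but the aged sham mice were spread widely, with a coefficient of variation of 36.2%. Its mean rose from 1262 ± 457 CPM (SD, n = 4) to 3551 ± 1028 CPM (SD, n = 5), a log2 fold change of 1.49 (SE 0.30, edgeR FDR 0.00583). Thrombospondin-1 is also stored in platelets, and 5 platelet genes summed to 29.6 to 42.1 CPM in the uninjured and 21.7 to 30.4 CPM in the injured libraries, with Ppbp called lower. Thbs2 (ENSMUSG00000023885, chromosome 17, 14665500 to 14694262, minus strand) was at 304, 219.7, 216 and 197 CPM in aged sham and at 518, 423, 529, 542 and 739 CPM in aged bleo. For both genes aged sham 1 was the highest of the uninjured libraries and still below each injured one. The log2 fold change of Thbs2 was 1.23 (SE 0.18, edgeR FDR 0.00145).

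Thbs3 (ENSMUSG00000028047, chromosome 3, 89215180 to 89226837, plus strand) moved the other way. It was at 329, 311, 331 and 347 CPM in aged sham 1 to 4 and at 193, 226, 193, 87.2 and 100.5 CPM in aged bleo 1 to 5. The uninjured mice were nearly uniform, with a coefficient of variation of 4.47%, whereas the injured mice spread over 38.7%, with aged bleo 4 and 5 lowest. The mean fell by 1.04 on the log2 scale (SE 0.27, edgeR FDR 0.0166), from 329 ± 14.7 CPM (SD, n = 4) to 160 ± 61.9 CPM (SD, n = 5). Without aged bleo 4, the log2 fold change was -0.90 (edgeR FDR 0.0140). Mtx1, a mitochondrial import gene on the opposite strand, shares 318 exon bases with Thbs3 and had 20.1% as many counts. Its own log2 fold change was -0.50 (SE 0.10, edgeR FDR 0.00572), short of the fold threshold, and it is not stated if reads were counted by strand.

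Comp (ENSMUSG00000031849, chromosome 8, 70373548 to 70382065, plus strand), best known from cartilage and tendon, was the scarcest member. It was at 7.14, 1.15, 2.26 and 1.88 CPM in aged sham and at 10.5, 3.25, 3.89, 2.52 and 4.10 CPM in aged bleo, from 67 to 562 counts per library. The groups overlapped because aged sham 1 was above 4 of the 5 aged bleo libraries. The log2 fold change of 0.64 (SE 0.59, edgeR FDR 0.427) did not pass the test. It was 1.46 without aged sham 1 (edgeR FDR 0.0590, called) and 0.14 without aged bleo 1, so 1 library in either group decides its size and, for aged sham 1, the call. Of 6 chondrocyte genes, Acan and Matn3 were called higher and Sox9 lower, and Col2a1, Lect1 and Matn1 were too low to test. The 6 genes summed to 28.9 to 44.8 CPM in aged sham and 17.3 to 31.2 CPM in aged bleo.

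These shifts changed the make-up of the thrombospondin transcripts. Over Thbs1, Thbs2, Thbs3, Thbs4 and Comp, the share of Thbs1 in the summed FPKM was 70.9%, 69.6%, 61.6% and 54.4% in aged sham 1 to 4 and 77.0%, 80.5%, 84.3%, 75.1% and 79.2% in aged bleo 1 to 5. Every aged bleo library was above every aged sham library. The mean share was higher by 15.1 percentage points in aged bleo (64.1% ± 7.68, n = 4, against 79.2% ± 3.52, n = 5; two-sided exact permutation test, p = 0.0159, the lowest value attainable with these group sizes). The share follows from the changes of Thbs1 and Thbs3 given above, so this p-value is not separate evidence. Thbs3 took 16.1% to 30.9% of the family in aged sham and 2.55% to 6.74% in aged bleo. Thbs4, which is not among the 10 genes, took 0.0635% to 0.198% in aged sham and 2.27% to 3.12% in aged bleo. It stayed below Thbs3 in aged bleo 1 to 4 and exceeded it in aged bleo 5 (2.78% against 2.55%).

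**Figure D2:**
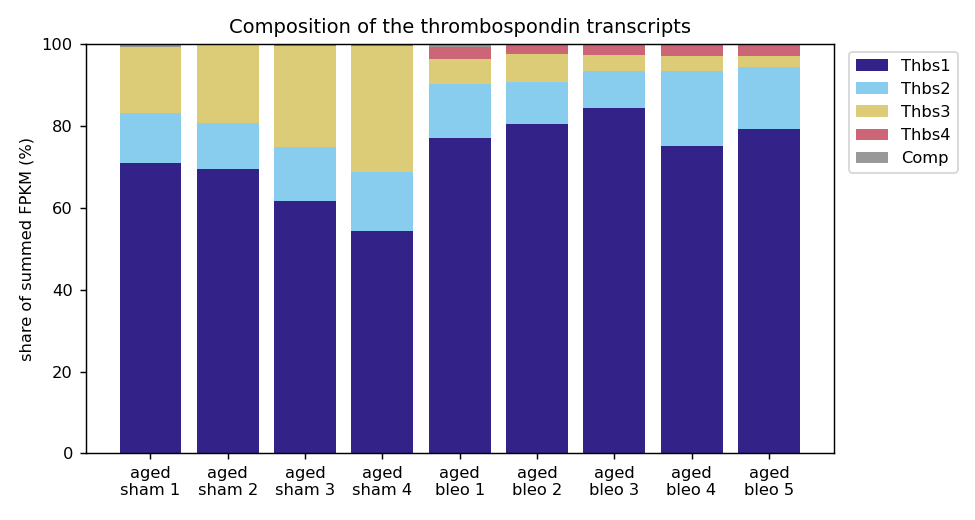
Share of each thrombospondin gene (percent of the summed FPKM of Thbs1, Thbs2, Thbs3, Thbs4 and Comp) in each of the 9 libraries, as stacked bars from 0 to 100%. Thbs1 takes 54.4% to 70.9% in aged sham and 75.1% to 84.3% in aged bleo. The Thbs3 band is narrower in aged bleo, and a Thbs4 band is seen in all 5 aged bleo libraries.

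Tenascin-C, a hexameric glycoprotein of provisional matrix, had the second largest rise of the 10 genes. Tnc (ENSMUSG00000028364, chromosome 4, 63959785 to 64047015, minus strand) was at 42.5, 29.5, 43.9 and 22.6 CPM in aged sham 1 to 4. In aged bleo 1 to 5 it was at 1530.04, 1094, 2254, 2769.99 and 2695 CPM. The lowest aged bleo library, aged bleo 2, was still far above the highest aged sham library. The ratio of the group means was 59.7, with a log2 fold change of 5.90 (SE 0.39, edgeR FDR 2.32e-05), rank 31 among all tested genes. Only 0.308% of the tested genes were called higher with a log2 fold change over 5. In FPKM, Tnc went from 1.87 ± 0.569 (SD, n = 4), rank 8900 of the 43346 genes, to 115 ± 42.8 (SD, n = 5), rank 124.

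The largest rise was that of Spp1 (ENSMUSG00000029304, chromosome 5, 104435118 to 104441050, plus strand), which encodes osteopontin, an acidic phosphoprotein bound by αv integrins and CD44. It was at 10.7, 7.19, 6.06 and 11.2 CPM in aged sham 1 to 4 (311 to 661 counts) and at 2202, 979.997, 1118, 3163 and 3263 CPM in aged bleo 1 to 5 (55147 to 231823 counts). The aged bleo mice were spread widely, aged bleo 2 and 3 lying below the other 3, and none came near the aged sham range. The ratio of the means was 245, and the log2 fold change of 7.93 (SE 0.55, edgeR FDR 2.84e-05) ranked 5 among all tested genes. Per length, osteopontin mRNA went from 2.22 ± 0.611 FPKM (SD, n = 4), rank 8074 of all genes, to 566 ± 297 FPKM (SD, n = 5), rank 19.

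Osteopontin is also made by macrophages, so their markers are given beside it. Of 12 macrophage genes, 6 were called higher in aged bleo (Cd68, Lyz2, Emr1, Mrc1, Fcgr1 and Trem2), against 12.3% of all tested genes, and none lower, with a median log2 fold change of 1.10. Of the called genes, Emr1, Mrc1 and Fcgr1 overlapped between the groups. Among those not called, Itgam, Cd14 and Gpnmb had log2 fold changes of -0.21, -0.19 and -0.18. Those of Csf1r, Marco and Siglecf were 0.46, 0.96 and 0.84. Lyz2, which encodes a lysozyme and rose most of the 12, was at 80.0 to 162 CPM in aged sham and at 373 to 1132 CPM in aged bleo. Ptprc, which encodes the CD45 antigen used in the sort, overlapped between the groups, at 42.3 to 169 CPM in aged sham and 30.6 to 183 CPM in aged bleo. On the length-scaled level, the sum of the 12 genes was highest in aged bleo 4, at 589 FPKM beside 862 FPKM of Spp1. In aged bleo 5, Spp1 was at 856 FPKM and the sum at 275 FPKM. In aged bleo 1, Spp1 was at 577 FPKM and the sum at 182 FPKM. Spp1 alone was at 106% to 317% of the summed 12 genes in the aged bleo libraries and at 1.44% to 3.62% in the aged sham libraries. Without aged bleo 4, its log2 fold change was 7.74. The part of these cells in the Spp1 level was not tested, and the ratio to 12 marker genes does not measure it.

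**Figure D3:**
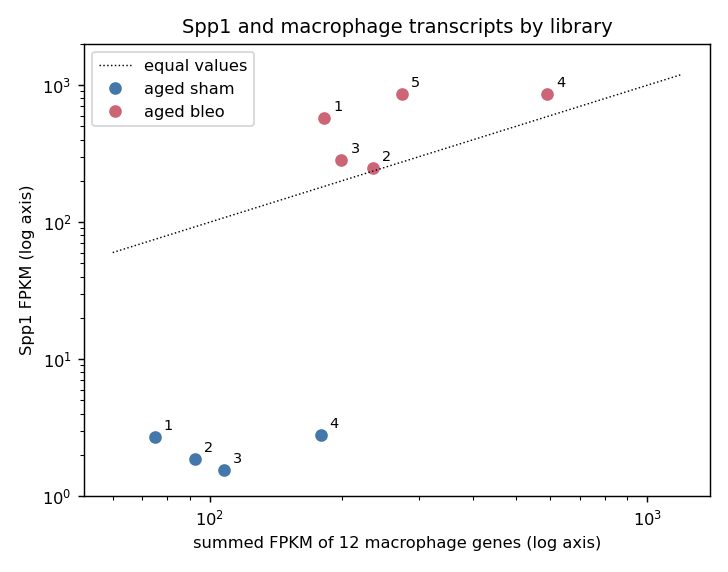
Spp1 FPKM (log axis) against the summed FPKM of 12 macrophage genes (log axis) in the 4 aged sham (blue) and 5 aged bleo (red) libraries, each point labelled with its replicate number and the dotted line marking equal values. All red points lie above the line and all blue points far below it, aged bleo 2 lying closest to it, and aged bleo 4 lies farthest right at nearly the same Spp1 level as aged bleo 5.

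Postn (ENSMUSG00000027750, chromosome 3, 54361109 to 54391034, plus strand) encodes periostin, a fasciclin-domain protein that promotes collagen cross-linking. It was at 333, 195, 217 and 195 CPM in aged sham and at 1139, 1054, 1164, 949 and 1584 CPM in aged bleo. Aged sham 1 stood apart from 3 nearly equal uninjured libraries, and aged bleo 5 was the highest of the injured ones, without overlap between the groups. The log2 fold change was 2.32 (SE 0.22, edgeR FDR 1.31e-04), and 3.02% of the tested genes were called higher with a log2 fold change over 2.

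The SPARC pair diverged. Sparc (ENSMUSG00000018593, chromosome 11, 55394500 to 55420080, minus strand) was at 2114, 1718, 1725 and 1962 CPM in aged sham and at 6543, 4719.7, 6401, 6259 and 7006 CPM in aged bleo. It varied least of the rising genes, with coefficients of variation of 10.3% and 14.0%, and its groups were far apart. The log2 fold change was 1.72 (SE 0.16, edgeR FDR 1.11e-04). Sparcl1 (ENSMUSG00000029309, chromosome 5, 104079111 to 104114088, minus strand) was at 1534, 1894, 1687 and 1553 CPM in aged sham and at 2729.8, 2693, 2664, 1622 and 2251 CPM in aged bleo. Aged bleo 1, 2, 3 and 5 exceeded each uninjured library, and aged bleo 4 was below aged sham 2 and 3. The fitted log2 difference of 0.52 (SE 0.17) had an edgeR FDR of 0.0406 but missed the fold threshold. It passed both thresholds without aged bleo 4, at 0.62 (edgeR FDR 0.00513), and without aged sham 2, at 0.59 (edgeR FDR 0.0554).

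Measured within each library, the log2 ratio of Sparc to Sparcl1 FPKM was 0.35, -0.25, -0.08 and 0.22 in aged sham 1 to 4. In aged bleo 1 to 5 it was 1.15, 0.70, 1.15, 1.84 and 1.53. The 2 transcripts were thus about equally abundant in uninjured fibroblasts, and Sparc exceeded Sparcl1 in every injured library, most in aged bleo 4, where Sparcl1 was lowest. The mean log2 ratio was higher by 1.21 in aged bleo (0.06 ± 0.28, n = 4, against 1.27 ± 0.43, n = 5; two-sided exact permutation test, p = 0.0159, again the lowest attainable). This ratio does not depend on how the libraries were scaled to each other. It is built from the 2 genes whose changes are given above, so its p-value is not separate evidence.

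Fn1 (ENSMUSG00000026193, chromosome 1, 71585520 to 71653200, minus strand) held the most counts of the 10 genes in both groups. It was at 8479, 3559, 4688 and 5157 CPM in aged sham and at 10639.7, 8887.5, 11968, 9966 and 13909 CPM in aged bleo. The groups came close without overlap, since aged sham 1 lay just under aged bleo 2. The log2 fold change was 1.02 (SE 0.26, edgeR FDR 0.0169), the smallest of the 7 rises, and 1.31 without aged sham 1. Fn1 took 0.354% to 0.842% of all counts in aged sham and 0.871% to 1.41% in aged bleo.

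**Figure D4:**
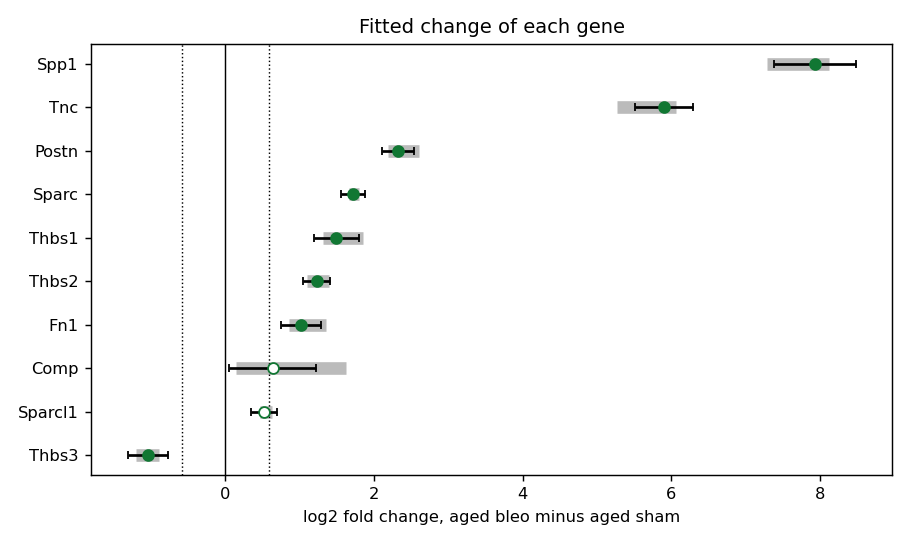
Fitted log2 fold change of each gene (aged bleo minus aged sham) with its standard error, in order of size, where filled points passed both thresholds. Grey bars show the range over all alternative analyses, and dotted lines mark a fold change of 1.5 in either direction. Spp1 at 7.93 and Tnc at 5.90 lie apart from the other rises, Thbs3 at -1.04 is the only gene to the left of 0, and the grey bar of Comp is the longest relative to its value.

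The order of the transcripts by length-scaled level changed as well. In aged sham it was led by Sparc at 234 ± 21.8 FPKM, Sparcl1 at 225 ± 25.4 FPKM and Fn1 at 196 ± 75.1 FPKM (SD, n = 4), whose ranges overlapped. Thbs1 followed at 87.3 ± 32.0 FPKM, then Thbs3 at 28.6 ± 0.891 FPKM, Thbs2 at 16.6 ± 3.38 FPKM and Postn at 12.6 ± 3.53 FPKM, of which Thbs2 and Postn had overlapping ranges. Spp1 at 2.22 FPKM and Tnc at 1.87 FPKM overlapped too, and Comp came last at 0.536 ± 0.471 FPKM, its highest library (1.23 FPKM) just above the lowest of Tnc (1.19 FPKM).

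In aged bleo, Sparc led at 791 ± 120 FPKM (SD, n = 5), rank 11 of all genes, followed by Spp1. The libraries of Spp1 ran from 249 to 862 FPKM and so overlapped with those of Sparc, of Fn1 at 408 ± 71.7 FPKM, of Sparcl1 at 329 ± 58.6 FPKM and of Thbs1 at 250.2 ± 67.0 FPKM. Tnc at 115 FPKM came next, and its lowest library (59.1 FPKM) overlapped with Postn at 64.6 ± 13.3 FPKM. Thbs2 followed at 40.0 ± 8.81 FPKM without reaching the range of Postn. Thbs3, which had been above Thbs2 in every aged sham library, was below it in every aged bleo library, at 14.1 ± 5.22 FPKM, and Comp was again last at 0.859 ± 0.571 FPKM.

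The libraries did not keep 1 order across the 10 genes. Aged sham 1 was the highest uninjured library for 6 of them (Thbs1, Thbs2, Comp, Postn, Sparc and Fn1), and aged sham 2 the lowest for 5. Among the injured libraries, aged bleo 5 was highest for Thbs2, Spp1, Postn, Sparc and Fn1. Aged bleo 4 was highest for Tnc but lowest for Thbs1, Thbs3, Comp, Postn and Sparcl1, and aged bleo 2 was lowest for Thbs2, Tnc, Spp1, Sparc and Fn1. The distance from the uninjured level therefore ranked the injured mice differently by gene, with aged bleo 4 near the top for Tnc and Spp1 and at the bottom for Postn and Thbs1.

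Relatives of these proteins moved in both directions. Of 25 further matricellular genes, 21 could be tested, 5 were called higher (Thbs4, Tnn, Wisp1, Ibsp and Dmp1) and 12 lower, against 12.3% and 11.5% of all tested genes, and the median log2 fold change was -0.85. Most of the higher ones were scarce in aged sham, Wisp1 being the most abundant of the 5 there at 14.6 CPM. Ibsp and Dmp1, which encode bone sialoprotein and dentin matrix protein, belong with Spp1 to a family of acidic phosphoproteins best known from bone and teeth. Ibsp had 2 to 31 counts per aged sham library and 1948 to 2827 per aged bleo library (log2 fold change 7.37, SE 0.43, edgeR FDR 1.48e-05), and its 5 aged bleo levels were close to each other, at 36.4 to 43.0 CPM. Dmp1 had 2 to 8 counts in aged sham and 244 to 1082 in aged bleo (log2 fold change 6.65, SE 0.48, edgeR FDR 3.64e-05). Mepe, of the same family, had at most 10 counts in any library and was not tested.

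Thbs4, a pentameric thrombospondin like Thbs3, rose from 1.22 ± 0.634 CPM (SD, n = 4) to 63.8 ± 14.3 CPM (SD, n = 5), a log2 fold change of 5.70 (SE 0.38, edgeR FDR 2.32e-05). The tenascins also parted, as Tnn rose (log2 fold change 5.54, edgeR FDR 0.00233) with Tnc while Tnxb, the tenascin of mature connective tissue, fell from 4023 ± 557 CPM (SD, n = 4) to 1281 ± 882 CPM (SD, n = 5). Tnxb was at 1513, 2494, 1567, 345 and 487 CPM in aged bleo 1 to 5, so that aged bleo 4 and 5, highest for Tnc, were lowest for Tnxb, as they were for Thbs3. Its log2 fold change was -1.65 (SE 0.51, edgeR FDR 0.0340). Among the SPARC relatives, Spock2 fell from 174 to 47.8 CPM (log2 fold change -1.86, edgeR FDR 0.00262), Spock3 from 1.18 to 0.311 CPM (log2 fold change -1.93, edgeR FDR 0.0393), and Smoc1 and Smoc2 were called lower too. The remaining lower genes were Ctgf, Cyr61 and Nov of the CCN family, against a rise of Wisp1 of the same family, the fibulins Fbln1, Fbln2 and Fbln5, and Tgfbi, a paralog of Postn, at a log2 fold change of -1.47 (edgeR FDR 3.47e-04).

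**Figure D5:**
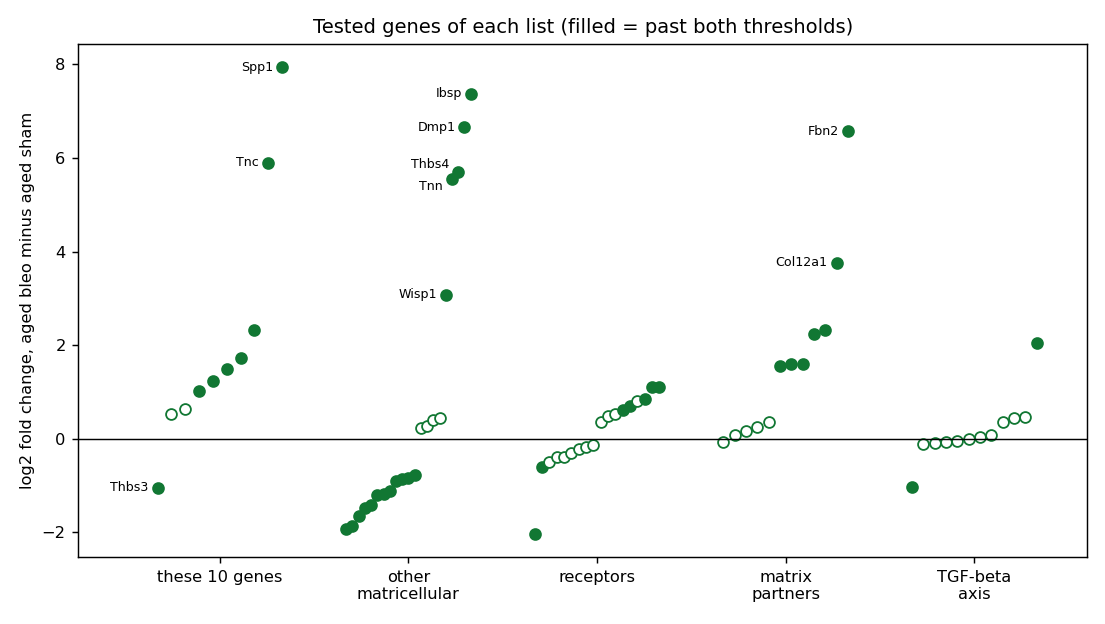
Fitted log2 fold changes (aged bleo minus aged sham) of the tested genes in 5 lists, in order of size within each list, with filled points for genes past both thresholds. The 21 other matricellular genes divide into 5 high points and 12 low ones, the receptors and TGF-β genes cluster around 0, and 7 of the 12 matrix partners rose with none called lower.

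Of 18 integrin and other receptor genes for these proteins, 5 rose and 2 fell, with a median log2 fold change of 0.12. Over all tested genes, 12.3% were called higher and 11.5% lower, so the number that fell was near the background. Cd44, a receptor for osteopontin and hyaluronan, rose from 171 ± 38.9 to 369 ± 73.6 CPM (log2 fold change 1.11, edgeR FDR 0.00319), Cd36 from 8.91 to 19.1 CPM (1.10, edgeR FDR 0.00728) and Itgb1, the common β1 chain, from 773 ± 30.8 to 1393 ± 257 CPM (0.85, edgeR FDR 0.00260). Cd36 and Cd44 are also expressed by macrophages, of whose 12 markers 6 rose. Itga5, the α chain of the fibronectin receptor, and Cacna2d1, a thrombospondin receptor, made up the remaining rises. Itgb3 fell from 69.2 ± 4.36 to 45.5 ± 5.15 CPM (log2 fold change -0.61, edgeR FDR 0.00136), just past the fold threshold, and the scarce Itgb6 fell from 0.804 to 0.188 CPM with overlapping libraries (-2.04, edgeR FDR 0.0476).

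Of 12 matrix genes whose products assemble with these proteins, 7 rose (Col1a1, Col1a2, Col3a1, Col5a1, Col12a1, Lox and Fbn2), against 12.3% of all tested genes, and none fell, with a median log2 fold change of 1.58. Fbn2, the fibrillin of developing tissue, rose from 0.557 to 54.8 CPM (log2 fold change 6.57, SE 0.65, edgeR FDR 1.76e-04), and Col12a1, which encodes a tenascin-binding collagen, from 58.6 to 796 CPM (3.76, SE 0.34, edgeR FDR 1.14e-04). Among 12 genes of the TGF-β axis, Tgfb1 rose from 26.5 ± 1.09 to 109 ± 28.1 CPM (log2 fold change 2.04, SE 0.18, edgeR FDR 9.79e-05), Tgfbr3, the coreceptor betaglycan, fell by 1.02 on the log2 scale (edgeR FDR 0.0193), and 10 were not called. The 2 calls among 12 genes are below the 23.8% called over all tested genes, and the median of 0.02 was close to that of all tested genes.

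For each of the 10 genes, the genes with the most similar profile over the 9 libraries were found as those with the smallest root-mean-square difference of centred log2 CPM. The nearest gene to Spp1 was Grem1 (0.38 log2 units), which encodes a secreted BMP antagonist, and then Lrrc15 (0.55). Tnc lay nearest to 8030451A03Rik (0.24) and Dmp1 (0.29), and Postn nearest to Cmya5 (0.20) and Col8a1 (0.22). Sparc lay nearest to the collagen gene Col1a2 (0.09) and the zinc transporter gene Slc39a14 (0.10), and Sparcl1 to Heyl (0.06), a Notch target gene, and Mical3 (0.08). Thbs2 lay nearest to Pxdn (0.12), which encodes a peroxidase that cross-links collagen IV, and Map4k3 (0.13), and Thbs3 to Sulf2 (0.06), a heparan sulfate 6-O-endosulfatase gene, and Steap3 (0.07). Comp lay nearest to Serpina1b, at 0.41 the widest nearest distance of the 10 genes, and then to Cntn2 (0.46). It also varied most within the groups, with an SD of 0.93 log2 units.

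Of these neighbours, 3 overlap the gene itself on the opposite strand. Thbs1 was nearest to Gm29233 (0.06), which shares 208 exon bases with it and had 2.90% as many counts, ahead of Gpr126 (0.25). Fn1 was nearest to Fmn1 (0.14) and then Apol7d (0.18), which shares 292 exon bases with Fn1 and had 2.32% as many counts. 8030451A03Rik shares 176 exon bases with Tnc, had 4.01% as many counts and a log2 fold change of 6.25 (SE 0.38, edgeR FDR 1.68e-05). Since the use of strand in the counting is not stated, reads within the shared bases of these pairs cannot be told apart.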

How the data were processed

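The 9 RNA-Seq libraries of sorted lung fibroblasts were grouped by the treatment in their labels, 4 as aged sham and 5 as aged bleo. The authors deposited 1 table of read counts per gene, whole numbers without normalization, and of FPKM values. These were scaled to a library total and to gene length. That total was 2.27 to 2.42 times the counts on genes, depending on the library. The FPKM values are lower by this factor than those counts would give. Per the submitters' processing notes, the tools were bcl2fastq, STAR 2.5.2b and featureCounts of Subread, and the build mm10 (GRCm38). Of 42462 gene identifiers shared with GENCODE M21, 78.9% have the same start and end there.

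Genes with a mean count of at least 25 were TMM-normalized, and the quasi-likelihood test of edgeR 4.0.16 was run in R 4.3.3, with Benjamini-Hochberg FDR over all 16877 genes tested, where the study used a moderated test with the same thresholds. The SE given with a log2 fold change was derived from this test. It is the size of the log2 fold change divided by the square root of the F statistic. Each library came from 1 mouse, so p-values judge the group difference against the spread between mice. Any difference that goes with the suffix of the library names is not separated from this spread or from the treatment. Shares and ratios of FPKM were compared by exact permutation over 126 splits (scipy 1.17.1).

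The 10 genes and the further lists were chosen with earlier results of these data known. The other genes named are the 3 called genes of each list that rose most and the 3 that fell most and the 2 nearest profiles of each of the 10 genes. Further called genes are named to complete the counts of a list, and 1 gene of the macrophage list is not reported here and was left out of its sums. Values are also given for Tnn, Wisp1, Tgfbi, Tek, Lyz2, Ptprc and the uncalled macrophage genes, chosen after their values were seen. The same holds for the genes that overlap the 10 on the opposite strand. Alternatives were DESeq2 1.42.0, limma 3.58.1 on log2 CPM and on log2(FPKM + 0.1) and log2(FPKM + 1), other normalizations and filters, stricter thresholds, libraries left out and a replicate block. Protein sequences were not used here.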

Additional observations from a re-analysis of the deposited data

Results flagged for a closer look

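In groups of 4 or 5 libraries, a library was singled out where its gap to the nearest other was large relative to the range of the group (Dixon's test at the 95% level). Of 56 groups checked, 4 held such a library, and chance alone gives about 1 in 20. Comp was at 10.5 CPM in aged bleo 1, where the other aged bleo libraries had 2.52 to 4.10 CPM. Postn was at 333 CPM in aged sham 1, against 195 to 217 CPM in the other aged sham libraries. The same library had 1.55 CPM of Fbn2, against 0.202 to 0.253 CPM in the other 3. Itgb3 was at 54.6 CPM in aged bleo 4, against 42.2 to 44.7 CPM in the other aged bleo libraries.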

How the results depend on the processing

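The calls of Thbs1, Thbs2, Thbs3, Tnc, Spp1, Postn, Sparc and Fn1 held under all 21 alternatives, and no direction turned. The number of the 10 genes called was 8 under the other tools, normalizations, filters and thresholds, 8 to 9 with each library left out and 10 without aged sham 1 and aged bleo 4 together, a choice made after seeing the data. The genes called over the whole table numbered 4022, against 1785 with limma on log2(FPKM + 1) and 2158 at an FDR under 0.05 with a fold change over 2, and 3530 to 4590 with each library left out. The labels do not state whether replicate numbers pair the mice. Deviations of same-numbered libraries correlated at 0.09, 0.06, -0.13 and 0.33, and not every library correlated best with its own number. Such values give no sign of a general pairing but cannot exclude it. With the replicate number as a block, 9 of the 10 genes (Comp in addition, log2 fold change 0.81, edgeR FDR 0.0538) and 3539 genes in all were called. Under this pairing the difference in the log2 ratio of Sparc to Sparcl1 was 1.15 and that in the Thbs1 share 15.1 percentage points (exact sign-flip p = 0.125 for both). Without aged sham 1 and aged bleo 4 they were 1.17 and 18.4 (exact permutation p = 0.0571 for both). These p-values are the smallest possible in such designs. Leaving out each library gave 1.07 to 1.36 for the ratio and 11.9 to 17.4 percentage points for the share.

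The alternatives were run for 26 genes, the 10 and the called genes of largest change in the further lists, but not for Tnn, Tgfbi, Mtx1 or 8030451A03Rik. Of the alternative log2 fold changes, 523 kept their side of the threshold, 6 (of Comp and Sparcl1) passed it in addition and 13 (of Spock3, Itgb1, Itgb3 and Itgb6) no longer passed. Itgb3 lost its call without aged sham 3 (-0.56) and without aged bleo 2 (-0.58), Itgb6 without aged sham 2 (-1.86) and without aged sham 4 (-1.79), and Spock3 without aged sham 4 (-1.54). Counting noise limits only the scarcest genes, since 3 counts correspond to 0.0439 to 0.0601 CPM.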
